A study of Mus musculus with 12 samples.

Results

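The experiment examined here asks how the answer of adult neural stem cells (NSCs) to FGF2 under BMP4 depends on the cell line. It rests on 8 of the 12 RNA-seq libraries of the series, all those of NSCs held for 3 days in BMP4 alone (BMP) or in BMP4 with FGF2 (BMP/FGF), with 2 replicates for each of 2 lines. Each factor was supplied at 10 ng/ml. The ANS4 line came from MF1 mice and the BL6 line from C57BL/6 mice, and both had been isolated from the subventricular zone (SVZ) of young adults of 6 to 8 weeks and grown in EGF and FGF2 before treatment. In the study BMP stands for dormant quiescent cells (d-qNSCs) and BMP/FGF for primed quiescent cells (p-qNSCs). The labels name no transgene or deletion for these libraries. Each strain is represented by 1 line, so line, strain and derivation cannot be told apart.

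BMP4 acts through receptor serine/threonine kinases and SMAD proteins and holds NSCs out of the cell cycle, with the Id genes among its direct targets. FGF2 acts through receptor tyrosine kinases and the RAS/MAPK cascade, whose transcriptional output includes the Etv factors, the cyclin Ccnd1 and its own inhibitors of the Sprouty, Spred and Dusp families. In the SVZ, NSCs give rise to progenitors that express Dlx factors and to doublecortin-bearing neuroblasts that become interneurons of the olfactory bulb, and in smaller numbers to oligodendrocytes.

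The quantity described is the interaction, the log2 difference between BMP/FGF and BMP in BL6 minus the same difference in ANS4. A positive interaction means that the level in BMP/FGF relative to BMP was higher in BL6 than in ANS4, whatever the sign of either response. Where a gene or list is said to be higher or lower in BL6 with no condition named, the interaction is meant, not the level. A gene was called at a false discovery rate (FDR) under 0.05 in edgeR's quasi-likelihood test, adjusted over the 13403 genes tested. Levels are CPM, counts divided by the library total and brought to a common scale, with the factors of TMM (trimmed mean of M values), which correct for library size and composition but not for gene length, so they are compared only within a gene.

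The 8 libraries held 18069052 to 18711746 estimated counts, and 3 counts equalled 0.160 to 0.166 CPM. NSC markers were present throughout. Sox2, a transcription factor of stem and progenitor cells, read 652 to 753 CPM. The summed level of 23 NSC markers was 5834 to 6183 CPM in every library. On principal components of log2 CPM, the first axis (57.8% of the variance) separated BMP from BMP/FGF in both lines. The BL6 BMP libraries lay further out on it, at -34.2 and -37.0, than the ANS4 BMP libraries at -16.0 and -16.9. The 4 BMP/FGF libraries of both lines fell together, between 24.9 and 27.0. A further axis (7.63%) set the BL6 BMP replicates apart from each other, at -18.5 and 16.1, and their Euclidean distance of 37.8 on log2 CPM was the largest among the 4 replicate pairs, the others lying between 30.9 and 33.1.

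**Figure D1:**
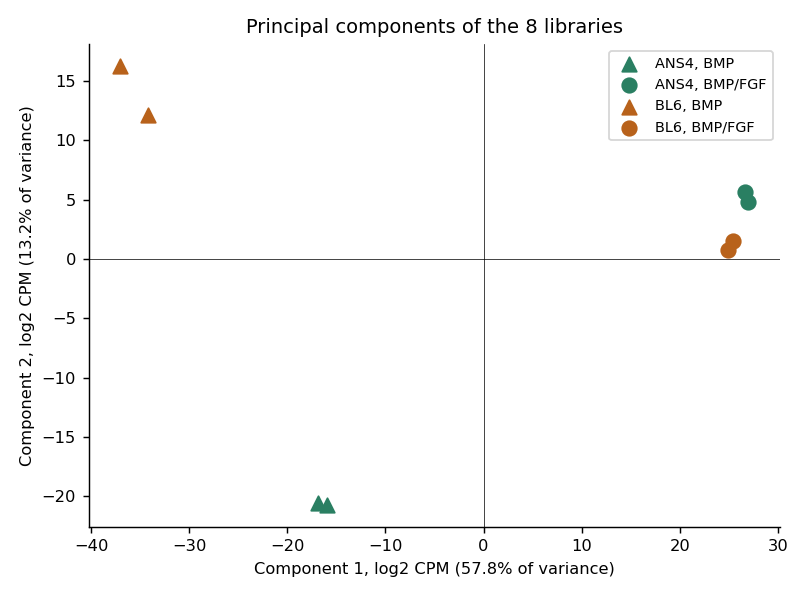
Principal components of log2 CPM over the 13403 tested genes, with 1 point per library, component 1 on the x axis and component 2 on the y axis. BMP libraries (triangles) of ANS4 and BL6 lie apart, whereas the 4 BMP/FGF libraries (circles) lie between 24.9 and 27.0 on component 1.

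The line labels were examined with the EGF/FGF libraries added. In a fit of all 12 libraries, 887 genes differed between BL6 and ANS4 in EGF/FGF, 3116 in BMP and 98 in BMP/FGF, of 13641 tested. Only 4 genes (Met, Map1b, Crim1 and Ahnak, named after their values were seen) differed in the same direction in all 3 conditions, and for 0 of those called did the difference exceed 1 on the log2 scale in each. Few transcripts therefore told the lines apart in every condition, and whether the labels stand for different genotypes was not tested.

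Between the lines, 1368 of 13403 genes (10.2%) responded unequally to FGF2 under BMP4. In 679 (5.07%) the response was higher in BL6 and in 689 (5.14%) it was lower, with a median interaction of 0.01 over all tested genes. Most of the unequal responses were larger in BL6: 1027 of the 1368 genes had the larger absolute response in BL6 and 341 in ANS4. Scaling by library size alone gave 408 higher and 1074 lower, against 679 and 689 with TMM. Each library carried weight in a design of 2 replicates. The number of called genes was 803 and 635 without ANS4 BMP replicate 1 and 2, 411 and 492 without ANS4 BMP/FGF replicate 1 and 2, 2921 and 2257 without BL6 BMP replicate 1 and 2, and 384 and 334 without BL6 BMP/FGF replicate 1 and 2.

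The 1368 genes fell into classes by the sign and size of each line's response. In 601 both lines moved in the same direction and BL6 moved further (282 towards higher and 319 towards lower levels in BMP/FGF). In 98 both moved in the same direction and ANS4 moved further (26 and 72). The signs were opposite in 669 genes, but both responses passed the test in only 103 of these (0.768% of tested genes), 42 upwards in BL6 and 61 downwards. Each line's response on its own was called for 5690 genes in BL6 (42.5%) and 3854 in ANS4 (28.8%). Of these, 2754 rose and 2936 fell in BL6, and 1835 rose and 2019 fell in ANS4. Among the 1368, the response was called in both lines for 459, in BL6 alone for 657, in ANS4 alone for 234 and in neither for 18. Large differences were few: 31 interactions lay above 1 and 112 below -1 on the log2 scale. Over all tested genes the responses of the lines correlated with r = 0.63, a description across genes, which are not independent replicates.

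**Figure D2:**
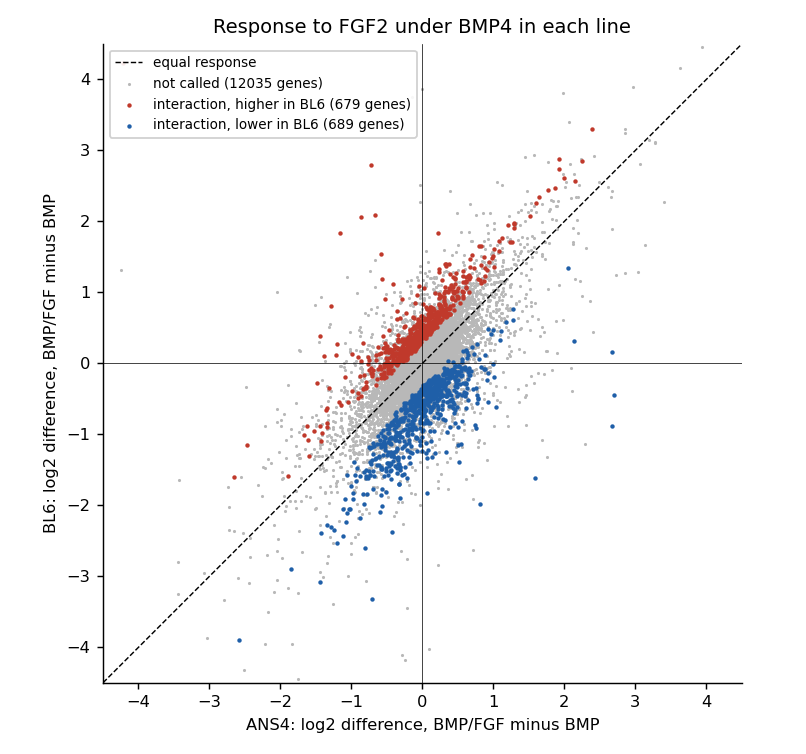
Response of each tested gene in ANS4 (x axis) and BL6 (y axis) as the log2 difference between BMP/FGF and BMP, 1 point per gene, with 13 genes beyond the axes (2 of them called). Genes with a called interaction lie away from the dashed line of equal response, 679 above it (red) and 689 below it (blue).

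Most genes with an unequal response differed between the lines in BMP. BL6 and ANS4 differed in BMP for 2687 genes (20.0%) and in BMP/FGF for 48 (0.358%). In BMP 1432 genes stood higher and 1255 lower in BL6. Of the 1368 interaction genes, 1168 differed between the lines in BMP only, 18 in BMP/FGF only, 9 in both and 173 in neither. The absolute line difference was the larger in BMP for 1193 of them. For the 679 genes with a higher interaction in BL6 the median line difference was -0.35 in BMP and 0.11 in BMP/FGF. For the 689 with a lower interaction it was 0.49 and -0.13. Library distances showed the same order. ANS4 and BL6 libraries stood 34.1 to 35.0 apart in BMP/FGF, near the 30.9 and 31.1 between replicates of those groups, and 44.8 to 49.6 apart in BMP. Since the interaction is the difference of these line differences, the former are another reading of the same libraries and not a further test.

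**Figure D3:**
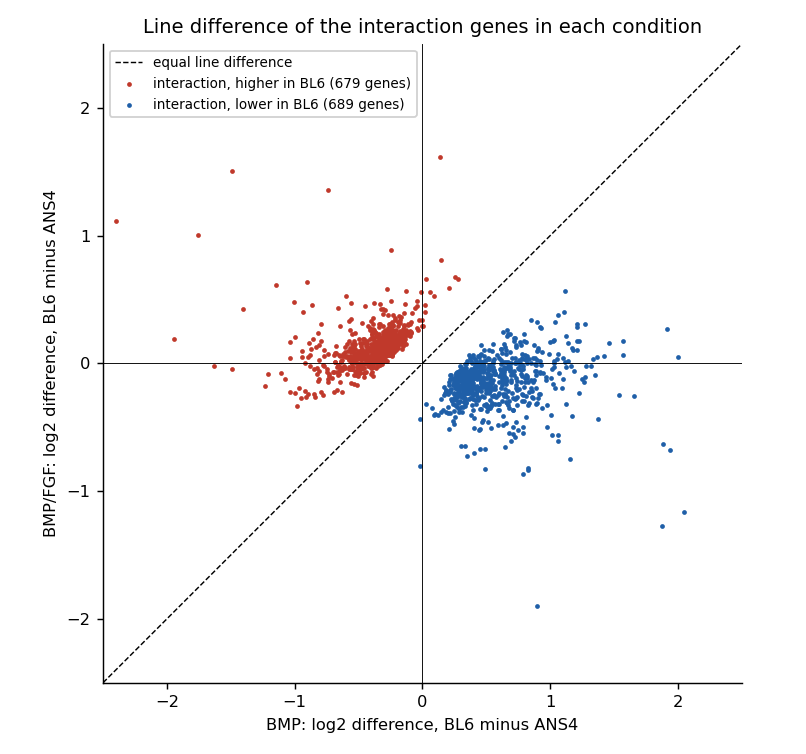
Line difference (BL6 minus ANS4, log2) of the 1368 interaction genes in BMP (x axis) and in BMP/FGF (y axis), 1 point per gene, with 5 genes beyond the axes. The points spread along the x axis and stay near 0 on the y axis, since 1168 of the genes differed between lines in BMP only.

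Cell division genes fell further in BL6. All 38 tested genes of a mitosis list fell in BL6 and 31 fell in ANS4, with median responses of -1.30 and -0.57. The interaction was lower in BL6 for 26 of the 38 and higher for 0, beside 5.14% and 5.07% of all genes, and its median was -0.67. In BMP 32 of the 38 stood higher in BL6, and in BMP/FGF 0 differed between the lines. Without each library in turn 8 to 28 members were called lower and 0 higher.

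Mki67, the antigen Ki67 that marks cycling cells, read 63.1 and 54.5 CPM in ANS4 BMP and 50.8 and 44.1 in ANS4 BMP/FGF, against 129.6 and 118 in BL6 BMP and 46.9 and 42.9 in BL6 BMP/FGF. The BL6 BMP libraries were thus higher than all others, and the remaining groups lay close together. The interaction was -1.15 (SE 0.13, FDR = 0.00074). Racgap1, a component of the centralspindlin complex of cytokinesis, read 50.3 and 54.5 CPM in ANS4 BMP and 79.3 and 76.2 in BL6 BMP, and 38.7 and 36.4 against 32.8 and 32.5 in BMP/FGF (interaction -0.77, SE 0.11, FDR = 0.00159). Cenpe, a kinetochore motor, went from 31.6 and 23.6 to 10.3 and 11.7 CPM in BL6, while its ANS4 values of 13.6 and 10.0 in BMP and 13.3 and 12.6 in BMP/FGF overlapped. Its interaction was -1.46 (SE 0.23, FDR = 0.00257). Ccna2, cyclin A2 of S phase and G2, fell by 1.41 in BL6 and by 0.72 in ANS4 on the log2 scale. The interaction calls of Mki67, Racgap1, Cenpe and Ccna2 held without each library in turn.

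Promoters of Mki67 and Racgap1 are shown because the mitosis list held the largest number of called members, and because late cell cycle genes are known to carry a CCAAT box, read by NF-Y, and a cell cycle homology region (TTTGAA), read by the DREAM and MuvB complexes. The windows, from RefSeq on GRCm38.p6, run from 250 bases before to 50 bases after the annotated start, at chr7:135716330-135716629 for Mki67 and chr15:99651607-99651906 for Racgap1, both on the minus strand. They are written 5' to 3' on the gene's strand, with both motifs, on either strand, in capitals.
Mki67: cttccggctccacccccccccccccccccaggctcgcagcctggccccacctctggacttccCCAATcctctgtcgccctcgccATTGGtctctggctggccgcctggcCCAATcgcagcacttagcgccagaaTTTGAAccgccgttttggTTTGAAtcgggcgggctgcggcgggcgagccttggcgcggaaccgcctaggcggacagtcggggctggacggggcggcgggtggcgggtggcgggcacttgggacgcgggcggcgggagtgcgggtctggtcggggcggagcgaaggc
Racgap1: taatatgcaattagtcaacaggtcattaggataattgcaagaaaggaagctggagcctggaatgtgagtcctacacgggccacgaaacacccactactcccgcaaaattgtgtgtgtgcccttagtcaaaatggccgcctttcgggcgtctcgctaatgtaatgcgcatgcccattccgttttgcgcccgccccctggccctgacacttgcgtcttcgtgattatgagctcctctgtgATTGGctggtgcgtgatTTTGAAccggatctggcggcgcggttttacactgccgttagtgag
The Mki67 window held 3 CCAAT and 2 TTTGAA matches, and that of Racgap1 held 1 of each. Windows were at hand for 30 members of the list, and 23 held TTTGAA on either strand and 23 held CCAAT. Over the 10657 tested genes with a window the shares were 11.5% and 39.1%. A match is a run of letters and does not show that a factor was bound.

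DNA replication genes, which act earlier in the cycle, gave fewer unequal responses. Of 39 tested, 32 fell in BL6 and 19 in ANS4 (medians -0.75 and -0.28), and 8 had a lower interaction in BL6 with 0 higher (median -0.31). Without each library in turn 1 to 11 were called lower. E2f8, an E2F family repressor, read 8.16 and 7.29 CPM in ANS4 BMP, 6.89 and 8.14 in ANS4 BMP/FGF, 9.32 and 11.2 in BL6 BMP and 4.47 and 4.75 in BL6 BMP/FGF. Its ANS4 groups overlapped, and the interaction was -1.11 (SE 0.22, FDR = 0.00739). Mcm7, of the replicative helicase, fell by 0.81 in BL6 and by 0.32 in ANS4 (interaction -0.49, FDR = 0.0127, lost without at least 1 library).

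Part of the genes of the Dlx programme of interneuron fate fell further in BL6 as well. Of 19 tested, 18 fell in BL6 and 11 in ANS4, with medians of -1.57 and -0.60. The interaction was lower in BL6 for 9 and higher for 0, and the median interaction was -0.83. That median was -0.56 without ANS4 BMP/FGF replicate 2. In BMP 14 stood higher in BL6, and in BMP/FGF 0 differed.

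Gad1, which makes the transmitter GABA, gave 13.2 and 13.6 CPM in ANS4 BMP, 8.99 and 8.67 in ANS4 BMP/FGF, 41.4 and 38.1 in BL6 BMP and 8.88 and 9.66 in BL6 BMP/FGF. The 2 lines overlapped in BMP/FGF and stood 1.57 apart on the log2 scale in BMP, and the interaction was -1.50 (SE 0.15, FDR = 0.000546). Sp9, a zinc finger factor of interneuron progenitors, went from 47.7 and 57.3 to 9.49 and 8.60 CPM in BL6 and from 19.7 and 22.4 to 8.99 and 9.37 in ANS4 (interaction -1.34, SE 0.18, FDR = 0.00123). Dlx1 and Dlx2, homeodomain factors that specify these interneurons, fell by 1.57 and 2.10 in BL6 and by 0.48 and 1.07 in ANS4 (interaction FDR = 0.000579 and 0.00123). These 4 calls held without each library in turn. The homeodomain core TAATTA was found in 1 of 13 promoter windows of the list and in 2.36% of all 10657.

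Neuroblast and young neuron markers behaved alike. Of 20 tested, 18 fell in BL6 and 10 in ANS4 (medians -1.20 and -0.40). The interaction was lower in BL6 for 11 and higher for 1, Igfbpl1 (0.42), with a median of -0.57, and 16 stood higher in BL6 in BMP. Elavl3, a neuronal RNA-binding protein, read 36.1 and 38.5 CPM in ANS4 BMP and 42.9 and 41.6 in ANS4 BMP/FGF, but 79.7 and 82.5 in BL6 BMP and 34.3 and 33.3 in BL6 BMP/FGF. The interaction was -1.44 (SE 0.11, FDR = 5.84e-05), and BL6 moved from the highest of the 4 groups to the lowest. The line difference of Elavl3 in BMP/FGF, -0.32, was not called (FDR = 0.12). Dcx, the microtubule protein doublecortin of migrating neuroblasts, fell from 396 and 378 to 54.8 and 49.2 CPM in BL6 and from 173 and 169.6 to 47.6 and 47.8 in ANS4 (interaction -1.05, SE 0.10, FDR = 0.000385). Tubb3 and Stmn1, of neuronal microtubules and their turnover, had interactions of -0.93 and -0.71 (FDR = 0.00101 and 0.00169). All 4 calls held without each library in turn. In a bulk sample fewer cells of a type and less RNA per cell cannot be told apart.

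Oligodendrocyte lineage genes gave 6 lower and 0 higher interactions among 18 tested (median -0.52), and 11 were higher in BL6 in BMP. Pdgfra, the growth factor receptor of oligodendrocyte progenitors, read 50.5 to 52.5 CPM in the 4 ANS4 libraries and 51.9 and 52.5 in BL6 BMP/FGF, whereas BL6 BMP read 98.6 and 88.7. The interaction was -0.80 (SE 0.11, FDR = 0.00123). Gpr17, a receptor of committed progenitors, fell by 1.19 in BL6 and by 0.35 in ANS4, and Bcas1, a marker of early myelinating cells, read 58.1 and 51.5 CPM in BL6 BMP and 21.2 to 25.4 elsewhere (interaction -0.83 and -1.07, FDR = 0.000579 and 0.00101). Olig2, a transcription factor shared by progenitors of both lineages, fell by 0.31 in BL6 and rose by 0.45 in ANS4, from 306 and 364 to 270.0 and 269 CPM and from 217 and 209 to 293 and 292 (interaction -0.77, SE 0.11, FDR = 0.00145). Pdgfra, Gpr17, Bcas1 and Olig2 kept their calls without each library in turn.

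Ion channel and synapse genes were mixed. Of 36 tested, 7 were lower and 3 higher in BL6, with a median of -0.07 that ran to -0.24 without BL6 BMP replicate 2, -0.22 without BL6 BMP/FGF replicate 2 and -0.19 without ANS4 BMP/FGF replicate 1. The lower members included Grin3a, an NMDA receptor subunit (-0.93, FDR = 0.00699), and Snap25, of synaptic vesicle fusion (-1.18, FDR = 0.0134). The higher members included Kcnj10, the potassium channel of astrocytes (0.38, FDR = 0.0129), and Kcnk1, a leak channel (0.49, FDR = 0.014). Each of these 4 calls was lost without at least 1 library.

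Sterol and fatty acid synthesis genes rose further in BL6. Of 25 tested genes of cholesterol synthesis and its control, 23 rose in BL6 and 21 in ANS4, with medians of 1.19 and 0.61. The interaction was higher in BL6 for 18 and lower for 0, positive in 25 of 25, with a median of 0.50. In BMP 22 were lower in BL6, and in BMP/FGF 0 differed. Without each library in turn 8 to 20 were called higher.

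Hmgcs1, the HMG-CoA synthase at the start of the pathway, read 1378 and 1319 CPM in ANS4 BMP, 3293 and 3283 in ANS4 BMP/FGF, 804 and 733 in BL6 BMP and 3049.8 and 2982 in BL6 BMP/FGF. Both lines rose and BL6 was the lower in BMP, and the interaction was 0.69 (SE 0.08, FDR = 0.000848). Idi1, the isopentenyl diphosphate isomerase, rose from 106 and 102 to 414 and 398 CPM in BL6 and from 190.2 and 175 to 432 and 461 in ANS4 (interaction 0.68, SE 0.10, FDR = 0.00145). Nsdhl, of sterol demethylation, and Fdps, farnesyl diphosphate synthase, had interactions of 0.65 and 0.69 (FDR = 0.00196 and 0.00211). These 4 calls held without each library in turn. Srebf2, the transcription factor of the pathway, had an interaction of 0.02 and was not called.

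The promoters of Hmgcs1 and Idi1 are shown as the members with the lowest interaction p, since sterol genes are known to be driven by SREBP at sterol regulatory elements together with NF-Y. The windows lie on the plus strand at chr13:119690101-119690400 and chr13:8885356-8885655 (RefSeq, GRCm38.p6). Capitals mark the sterol element (TCACNCCAC) and the NF-Y box on either strand.
Hmgcs1: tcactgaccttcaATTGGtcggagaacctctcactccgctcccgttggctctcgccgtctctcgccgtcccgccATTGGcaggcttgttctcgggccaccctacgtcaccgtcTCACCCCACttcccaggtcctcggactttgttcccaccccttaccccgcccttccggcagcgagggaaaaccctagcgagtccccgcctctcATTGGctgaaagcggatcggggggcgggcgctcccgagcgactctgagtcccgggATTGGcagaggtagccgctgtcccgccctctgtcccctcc
Idi1: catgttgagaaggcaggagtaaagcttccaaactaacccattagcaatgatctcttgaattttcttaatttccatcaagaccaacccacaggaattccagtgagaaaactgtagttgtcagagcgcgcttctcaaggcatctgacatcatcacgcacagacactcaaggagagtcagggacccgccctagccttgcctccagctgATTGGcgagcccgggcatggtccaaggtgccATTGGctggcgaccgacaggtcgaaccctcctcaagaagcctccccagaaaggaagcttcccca
The Hmgcs1 window held 1 sterol element and 4 CCAAT matches, and that of Idi1 held 2 CCAAT matches. Of 18 members with a window, 16 held CCAAT (39.1% of all 10657) and 1 held TCACNCCAC (1.07%).

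In fatty acid synthesis the interaction was higher in BL6 for 10 of 14 tested genes and lower for 0 (median 0.53, 14 of 14 positive). Without each library in turn, 6 to 11 were called. Scd1 and Scd2 are stearoyl-CoA desaturases, which make monounsaturated fatty acids. Scd1 gave 2185 and 2092 CPM in ANS4 BMP, 2761 and 2840.0 in ANS4 BMP/FGF, 1162 and 1351 in BL6 BMP and 3006 and 3007 in BL6 BMP/FGF (interaction 0.87, SE 0.09, FDR = 0.000579). BL6 thus went from the lowest group to the highest, but the line difference in BMP/FGF, 0.10, was not called (FDR = 0.601). Scd2 rose by 0.62 in BL6, while ANS4 stood at 12216 and 12795 CPM in BMP and 12023 and 11830.4 in BMP/FGF, a difference of -0.07 (FDR = 0.35). Its interaction was 0.69 (SE 0.07, FDR = 0.000579). Fasn, fatty acid synthase, and Acaca, acetyl-CoA carboxylase, had called interactions of 0.53 and 0.34, and Acss2, which makes acetyl-CoA from acetate, one of 0.75 (FDR = 0.00129).

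Interferon-stimulated genes rose in both lines and for part of them the rise was larger in BL6. Of 55 tested, 50 rose in BL6 and 51 in ANS4, with medians of 1.69 and 1.53. The interaction was higher in BL6 for 11 and lower for 1, Trafd1 (-0.38), with a median of 0.34. In BMP 22 were lower and 1 higher in BL6, and in BMP/FGF 0 differed. The 11 fell to 4 without any one of ANS4 BMP replicate 2 and the 4 BMP/FGF libraries, and rose to 16 without either BL6 BMP library.

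Oasl2, an oligoadenylate synthetase-like protein, gave 36.8 and 37.8 CPM in ANS4 BMP, 129 and 124 in ANS4 BMP/FGF, 22.4 and 22.1 in BL6 BMP and 119.9 and 121 in BL6 BMP/FGF. The lines lay apart in BMP (-0.75 on the log2 scale), and the line difference in BMP/FGF, -0.07, was not called. The interaction was 0.68 (SE 0.10, FDR = 0.00179) for Oasl2 and 0.59 (SE 0.10, FDR = 0.00385) for Lgals3bp, a secreted galectin-binding protein. These calls held without each library in turn, whereas that of Iigp1, an immunity-related GTPase (0.95, SE 0.21, FDR = 0.0129), did not. The motif of the interferon-stimulated response element, GAAANNGAA, was present on either strand in 22 of 41 promoter windows of the list and in 6.93% of all 10657.

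Antigen presentation and immunoproteasome genes gave 6 higher and 0 lower among 19 tested, with a median of 0.35 that was 0.23 without BL6 BMP replicate 1. All 19 rose in BL6 and 13 in ANS4. Psmb8, an immunoproteasome subunit, rose from 13.7 and 13.4 to 31.5 and 33.9 CPM in BL6 and from 22.4 and 26.4 to 33.2 and 34.3 in ANS4 (interaction 0.80, SE 0.14, FDR = 0.00462, held without each library in turn). Erap1, a peptide-trimming protease, rose by 0.62 in BL6 and differed by 0.03 in ANS4 (FDR = 0.811). The peptide transporter Tap2 (0.48) and the chaperone Calr (0.41) were also called. The calls of Erap1, Tap2 and Calr were each lost without at least 1 library, and 1 to 10 members were called higher without each library in turn.

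The interaction of astrocyte and radial glia markers was higher in BL6 for 12 and lower for 1 of 24 tested (median 0.33). Without each library in turn, 6 to 14 were called higher. Sparcl1, a matricellular protein, was the lower one (-0.42). In BMP 15 were lower in BL6. Aqp4, the water channel of astrocyte endfeet, read 1253 and 1246 CPM in ANS4 BMP, 1323 and 1383 in ANS4 BMP/FGF, 869 and 823 in BL6 BMP and 1412 and 1328 in BL6 BMP/FGF. It rose in BL6 by 0.70, while ANS4 differed by 0.12 (FDR = 0.156), and the interaction was 0.58 (SE 0.08, FDR = 0.00151). Slc1a2, a glutamate transporter, rose by 1.22 in BL6 and 0.67 in ANS4, and Fabp7, a fatty acid binding protein of radial glia, by 1.91 and 1.30 (called interactions 0.55 and 0.61). Gja1, the gap junction protein connexin 43, fell by 0.51 in ANS4 from 1222 and 1165 to 813 and 866 CPM, whereas BL6 read 809.7 and 755 before and 810.1 and 833 after (interaction 0.58, SE 0.09, FDR = 0.00196). Gfap itself, the intermediate filament of astrocytes and quiescent NSCs, rose in both lines, by 0.84 in BL6 and 1.12 in ANS4, with an interaction of -0.28 that was not called (FDR = 0.0529).

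Of the Notch pathway genes a minority responded unequally. Among 22 tested, 6 were higher and 2 lower in BL6 (median 0.14, between 0.05 and 0.08 without BL6 BMP replicate 1, BL6 BMP replicate 2 or BL6 BMP/FGF replicate 1). The higher ones were the receptors Notch2 and Notch3, the effectors Hes1, Hes5 and Hey1 and the ligase Dtx4, and the lower ones were the ligands Dll1 (-0.43) and Dll3 (-0.58). Higher calls numbered 3 without ANS4 BMP/FGF replicate 1 or BL6 BMP/FGF replicate 2, and lower calls numbered 0 without ANS4 BMP replicate 1 or any one of the 4 BMP/FGF libraries. Hes5, a Notch target that marks NSCs, read 5.40 and 5.36 CPM in ANS4 BMP, 6.19 and 7.22 in ANS4 BMP/FGF, 2.54 and 2.70 in BL6 BMP and 6.70 and 7.09 in BL6 BMP/FGF (interaction 1.08, SE 0.23, FDR = 0.0104). Hes1 rose by 0.64 in BL6, and its ANS4 difference of -0.32 was not called (FDR = 0.0712). The interaction of Hes1 was 0.96 (SE 0.18, FDR = 0.00606), and that of Notch3 was 0.79 (SE 0.11, FDR = 0.00159), with 41.4 and 45.1 CPM in BL6 BMP against 65.9 to 78.8 in the other 6 libraries. Notch2 differed from these in where the lines parted. It stood at 257 and 261 CPM in ANS4 BMP and 251 and 252 in BL6 BMP, but at 140.4 and 135 in ANS4 BMP/FGF and 188 and 189 in BL6 BMP/FGF, one of the 48 genes with a line difference in BMP/FGF (0.45, FDR = 0.00581). The calls of Hes5 and Hey1 were lost without at least 1 library, whereas those of Notch2, Notch3 and Hes1 held.

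**Figure D4:**
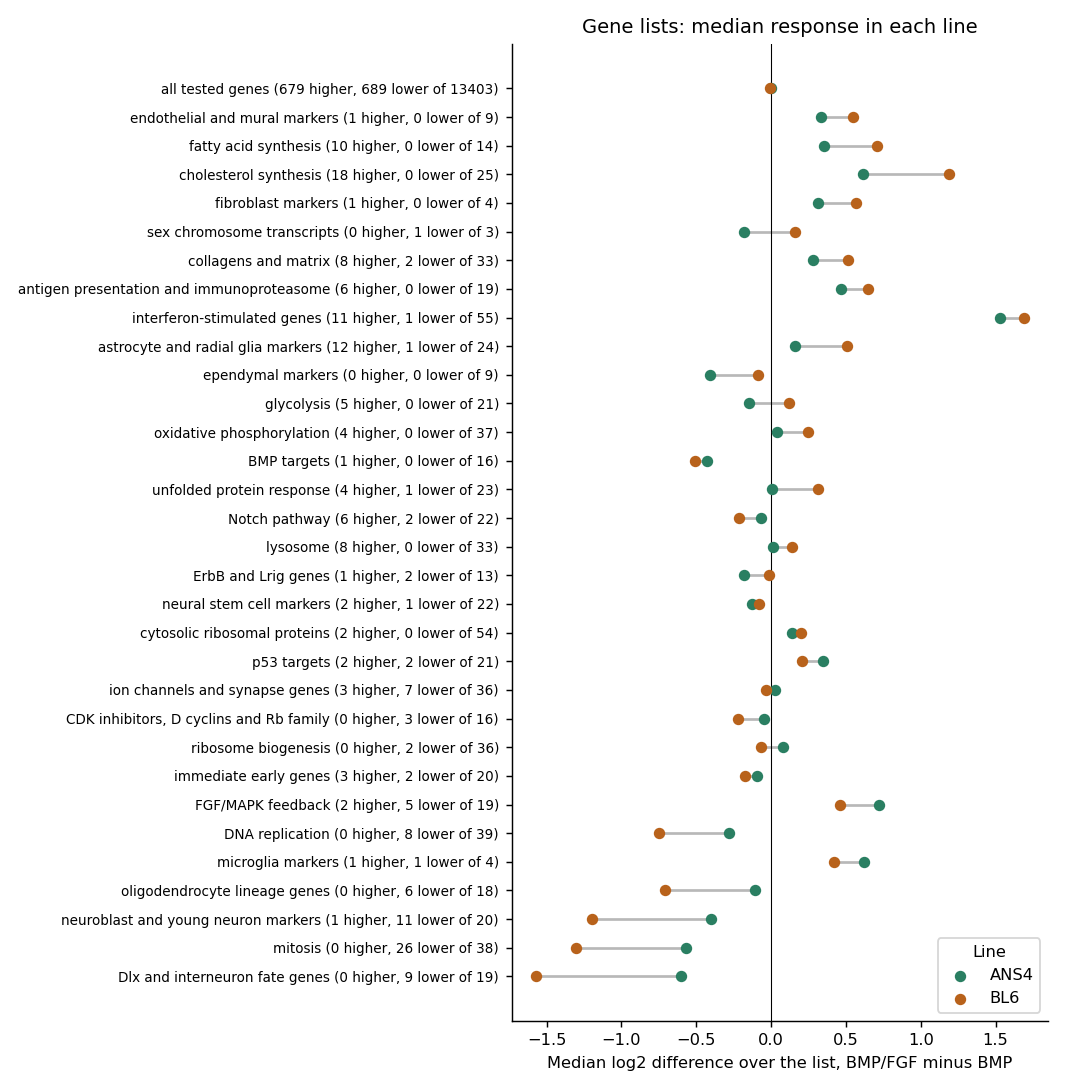
Median log2 difference between BMP/FGF and BMP over each of 31 gene lists in ANS4 (green) and BL6 (orange), with lists ordered by their median interaction and all tested genes at the top; the labels give the members with a higher or lower called interaction and the number tested. BL6 lies further from 0 than ANS4 for mitosis (-1.30 and -0.57) and for cholesterol synthesis (1.19 and 0.61), and ANS4 lies further out for FGF/MAPK feedback (0.72 and 0.46).

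The transcriptional output of FGF/MAPK signalling was mixed. Of 19 tested genes, 14 rose in ANS4 and 10 in BL6, with medians of 0.72 and 0.46, and the interaction was lower in BL6 for 5 and higher for 2 (median -0.30, and -0.20 without ANS4 BMP replicate 1). In BMP 9 already stood higher in BL6. Ccnd1, the D-type cyclin of the G1 phase, read 63.3 and 59.3 CPM in ANS4 BMP and 107 and 108 in BL6 BMP, and 133 and 131 against 148 and 149 in BMP/FGF. It rose by 1.11 in ANS4 and 0.46 in BL6 (interaction -0.64, SE 0.09, FDR = 0.00159, held without each library in turn). Etv5 and Etv4, ETS factors induced by FGF, rose by 1.28 and 2.05 in ANS4 and by 0.76 and 1.34 in BL6 (called interactions -0.52 and -0.71). Etv1 fell by 0.36 in BL6, and Dusp1, a MAPK phosphatase, by 0.80, while their ANS4 differences of 0.12 and 0.05 were not called. The interaction calls of Etv1, Etv5 and Dusp1 were lost without at least 1 library, and 1 to 8 members were called lower without each in turn (2 without either ANS4 BMP/FGF library, 3 and 1 without BL6 BMP/FGF replicate 1 and 2, 8 without BL6 BMP replicate 1). Of the feedback inhibitors, Spred1 (0.35) and Dusp14 (0.64) had called positive interactions, and those of Spry2 (0.13), Spry4 (0.03) and Dusp6 (0.09) were not called. The 2 higher calls became 0 with library size scaling alone and without any one of the ANS4 libraries or of the BL6 BMP/FGF libraries.

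Immediate early genes took different directions. Of 20 tested, 3 were higher (Fos, Fosb, Zfp36) and 2 lower (Jun, Myc), beside 5.07% and 5.14% of all genes. The median was -0.15, and it was -0.09 without ANS4 BMP replicate 1, -0.10 without ANS4 BMP/FGF replicate 2 and -0.01 without BL6 BMP replicate 2. Jun, of the AP-1 complex, read 53.5 and 60.7 CPM in ANS4 BMP and 98.5 and 101 in BL6 BMP, and 79.5 to 81.9 in all 4 BMP/FGF libraries. It rose in ANS4 by 0.49 and fell in BL6 by 0.29 (interaction -0.78, SE 0.10, FDR = 0.00123). Myc, a growth-promoting transcription factor, did likewise, with 30.4 and 34.4 CPM in ANS4 BMP, 60.0 and 68.6 in BL6 BMP and 37.3 to 41.3 in BMP/FGF (interaction -0.92, SE 0.13, FDR = 0.00161). Zfp36, which destabilises short-lived messages, fell by 1.18 in ANS4 and by 0.54 in BL6, from like levels of 65.6 to 76.0 CPM in BMP to 31.4 and 30.1 in ANS4 and 49.3 and 47.9 in BL6 (interaction 0.64, SE 0.12, FDR = 0.00615). Fos fell by 0.49 in ANS4 and differed by -0.10 in BL6 (interaction 0.38, FDR = 0.0249). Jun, Myc and Zfp36 held without each library in turn and Fos did not.

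Genes of metabolism and of the secretory and degradative compartments gave smaller differences, mostly higher in BL6. Lysosomal genes were higher for 8 of 33 tested and lower for 0 (median 0.14), glycolytic genes for 5 of 21 and 0 (0.21), oxidative phosphorylation genes for 4 of 37 and 0 (0.20) and unfolded protein response genes for 4 of 23 and 1 (0.19). Over all tested genes 5.07% were higher and 5.14% lower. With library size scaling alone the list medians were 0.06, 0.14, 0.13 and 0.11, and the higher calls numbered 2, 2, 2 and 4. Without each library in turn the higher calls ranged from 0 to 13, 1 to 9, 0 to 14 and 0 to 9, so these counts depended on single libraries. Collagens and matrix genes were higher for 8 and lower for 2 of 33 (0.36), with Sparc, a collagen-binding glycoprotein, at 1314 and 1314 CPM in BL6 BMP against 1749 to 2048 elsewhere (interaction 0.56, FDR = 0.00167). Without each library in turn 2 to 11 matrix genes were called higher and 0 to 3 lower, with 2 to 4 higher without any one of the ANS4 or the BL6 BMP/FGF libraries. Slc16a1, the lactate and pyruvate transporter, rose by 0.26 in BL6 and fell by 0.40 in ANS4 (interaction 0.66, SE 0.08, FDR = 0.00101).

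Atf4, the transcription factor of the integrated stress response, was the lower member of the unfolded protein response list. It rose in ANS4 from 50.6 and 50.2 to 92.0 and 86.5 CPM and read 69.7 and 73.6 before and 66.9 and 71.3 after in BL6. The interaction was -0.88 (SE 0.10, FDR = 0.00074), and the lines differed in both conditions, by 0.51 in BMP and -0.37 in BMP/FGF. The chaperones Hspa5 (0.39) and Canx (0.44) had positive interactions, with FDR = 0.0127 and 0.00949. Each call was lost without at least 1 library, whereas that of Atf4 held. Cytosolic ribosomal proteins hardly departed from all genes, with 2 of 54 higher and 0 lower and a median of 0.03, which was -0.04 with library size scaling and -0.01 without ANS4 BMP replicate 2. In ribosome biogenesis 2 of 36 were lower and 0 higher (median -0.15), near the 5.14% and 5.07% of all genes. Of 21 p53 targets 2 were higher and 2 lower, beside 5.07% and 5.14% of all genes. Ccng1, an early p53 target and one of the higher, rose by 1.34 in BL6 and by 0.72 in ANS4 (interaction 0.62, FDR = 0.00159). The lower ones were Plk2 and Gtse1, and 0 were called lower with DESeq2's Wald test.

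Among genes that moved in opposite directions with both responses called, Prkg2, a cGMP-dependent protein kinase, showed the pattern clearly. It read 4.41 and 4.81 CPM in ANS4 BMP and rose to 6.62 and 6.41, while in BL6 it fell from 14.7 and 12.6 to 7.93 and 6.75 (interaction -1.40, SE 0.21, FDR = 0.00194). The range between lines in BMP closed to neighbouring values in BMP/FGF. Olfml3, a secreted olfactomedin-like protein, did the reverse, with 15.5 and 16.9 to 11.8 and 11.5 CPM in ANS4 and 7.81 and 9.83 to 11.9 and 12.5 in BL6 (interaction 0.94, SE 0.18, FDR = 0.00629). The uncharacterised gene 4933427D14Rik crossed over, from 8.10 and 8.51 to 13.6 and 12.5 CPM in ANS4 and from 12.1 and 11.3 to 8.26 and 8.15 in BL6 (interaction -1.16, SE 0.17, FDR = 0.00159), and the lines differed in both conditions (0.49 and -0.67). D930016D06Rik was higher by 0.92 in ANS4 and lower by 0.55 in BL6 after FGF2, and Susd4, a complement regulator, by 0.61 and 0.63. Uhmk1, a kinase, and Lrrc9, a leucine-rich repeat protein, rose in BL6 by 0.40 and 0.35 and fell in ANS4 by 0.34 and 0.35. Prkg2, Olfml3, 4933427D14Rik and D930016D06Rik kept the interaction call without each library in turn, and Susd4, Uhmk1 and Lrrc9 did not.

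The largest interactions that the naming rule picked were those of genes at low levels. Clec2d, a C-type lectin, read 0.496 and 0.663 CPM in ANS4 BMP and 3.55 and 3.88 in ANS4 BMP/FGF, and stayed between 2.12 and 2.68 in all BL6 libraries (interaction -2.51, SE 0.38, FDR = 0.00196). Mast1, a neuronal microtubule-associated kinase, read 6.88 and 9.21 CPM in BL6 BMP and 2.12 and 2.40 in BL6 BMP/FGF, and 2.98 to 4.31 in ANS4 (interaction -1.90, SE 0.33, FDR = 0.00423). Stmn4 of the stathmin family (-1.79), the non-coding genes Gm14204 (-2.61) and Mir124a-1hg (-1.95), the host of a neuronal microRNA, were each highest in BL6 BMP, and each lost the call without at least 1 library. On the other side, Col22a1, a collagen, fell by 1.44 in ANS4 (interaction 1.83, FDR = 0.0104), and Kirrel2, an adhesion protein, rose by 1.84 in BL6 (1.61, FDR = 0.0394). Rab27b, of vesicle secretion, rose by 1.19 in BL6 (1.76, FDR = 0.024). The last 3 calls were also lost without at least 1 library.

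Some of the largest values belong to genes whose transcripts share much sequence with those of other genes, and are uncertain. Of the 31-base words in its transcripts, Brms1 shared 76.3% with other genes, Gm4724 100%, Gm14308 98.6%, Cpt1b 79.7%, H2-T22 67.4%, H2-Q6 51.8% and Gm5124 73.2%. Estimated counts of such genes depend on how the quantification divided reads. Brms1 had the largest of these interactions, 8.44 (SE 1.77, FDR = 0.0104), but its ANS4 BMP replicates read 15.9 and 0.331 CPM. In Gm4724, Gm14308, H2-Q6 and H2-T22, genes of repeated families and of the major histocompatibility complex, ANS4 BMP/FGF replicate 2 was the lower of its pair, with 0.808 against 4.52, 3.45 against 15.0, 0.916 against 5.60 and 1.72 against 3.98 CPM. Cpt1b, of mitochondrial fatty acid import, read 0.606 and 0.387 CPM in ANS4 BMP, 1.29 and 1.72 in ANS4 BMP/FGF, 2.02 and 2.13 in BL6 BMP and 0.837 and 0.502 in BL6 BMP/FGF (interaction -3.21, SE 0.52, FDR = 0.00281).

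**Figure D5:**
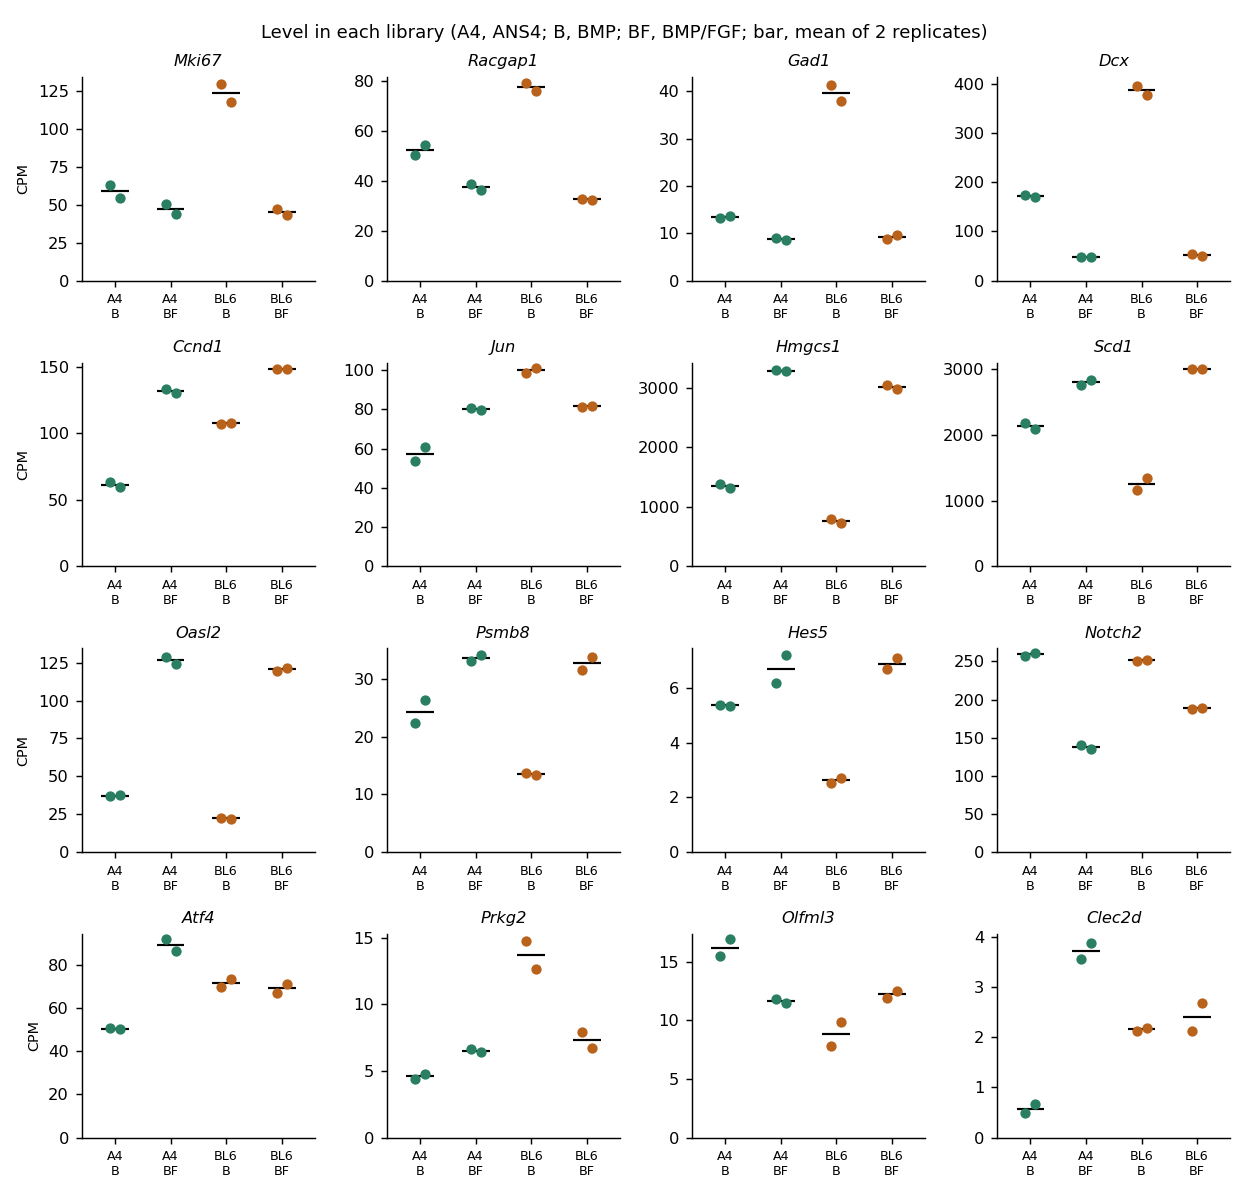
Level of 16 genes in each of the 8 libraries in TMM-scaled CPM (y axis, from 0), with 2 replicates as points and their mean as a bar for ANS4 (green) and BL6 (orange) in BMP and BMP/FGF. For Mki67, Racgap1, Gad1 and Dcx the BL6 BMP libraries stand above all others, and for Notch2 the lines part in BMP/FGF.

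For Lrig1, Cd9 and Sox2, genes around which the study turns, no unequal response was detected. Lrig1, a transmembrane inhibitor of receptor tyrosine kinases, read 638 and 711 CPM in ANS4 BMP, 849 and 778 in ANS4 BMP/FGF, 592 and 639 in BL6 BMP and 853 and 834 in BL6 BMP/FGF. It rose in both lines, and the interaction of 0.18 (SE 0.10, FDR = 0.261) did not pass the test. Cd9, a tetraspanin used to mark quiescent NSCs, rose by 0.68 in BL6 and 0.55 in ANS4 (interaction 0.13, SE 0.10, FDR = 0.457). Sox2 had an interaction of -0.01 (SE 0.10, FDR = 0.98). Egfr, the EGF receptor, rose in BL6 from 174 and 163 to 247 and 248 CPM, whereas ANS4 read 208 and 218 in BMP and 244 and 233 in BMP/FGF (interaction 0.39, SE 0.09, FDR = 0.0166, lost without at least 1 library). Among 13 tested ErbB and Lrig genes, beside 5.07% higher and 5.14% lower of all genes, the interaction was higher in BL6 for Egfr. It was lower for the neuregulin receptor Erbb4 (-0.90, FDR = 0.0469) and for Tgfa, a ligand of EGFR (-0.94, FDR = 0.00374). The call of Erbb4 was lost without 7 of the 8 libraries in turn, and that of Tgfa held without each.

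BMP targets gave 1 higher and 0 lower interaction among 16 tested (median 0.19), near the 5.07% and 5.14% of all genes. The higher one was Hey1 (0.46). Id1, a direct BMP target, read 18.5 to 34.5 CPM over the 8 libraries, with an interaction of 0.17 (SE 0.18, FDR = 0.594), and Id2 fell in both lines, by 0.46 and 0.68. NSC markers gave 2 higher (Hes5, Egfr) and 1 lower (Olig2) of 22, with a median of 0.08 that was 0.00 without ANS4 BMP/FGF replicate 1, 0.04 without ANS4 BMP replicate 1 and 0.05 without BL6 BMP replicate 2. Of CDK inhibitors, D cyclins and Rb family genes, 3 of 16 were lower (Ccnd1, Ccnd2 and Cdkn2a) and 0 higher, with Ccnd2 and Cdkn2a lost without at least 1 library.

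Markers of other cell types were examined by their summed levels. Of 15 microglia markers listed, 7 had a row in the table, 3 of these stayed under 1 CPM in all 8 libraries and 4 were tested, with summed levels of 57.7 to 68.3 CPM in BMP and 79.7 to 86.7 in BMP/FGF. Fibroblast markers summed to 32.4 to 57.4 CPM with 4 tested, and endothelial and mural markers to 49.8 to 84.1 CPM with 9 tested. The interaction was lower in BL6 for Cd68 (-1.82) among microglia markers and higher for Thy1 (0.50) among fibroblast markers and Tagln (1.06) among mural markers. Ependymal markers, of ciliated cells that line the ventricle, summed to more, 237 to 305 CPM over the 8 libraries with 9 tested, and the interaction was called for 0 of these. The calls of Cd68, Thy1 and Tagln were each lost without at least 1 library. Of 3 sex chromosome transcripts tested, Xist, the RNA of X inactivation, had a called negative interaction (-0.61, FDR = 0.00629). It read 798 and 651 CPM in BL6 BMP and 451 to 531 elsewhere. The part that other cell types had in the results was not tested.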

How the data were processed

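RNA was sequenced from ANS4 and BL6 NSCs in 3 conditions with 2 biological replicates each, of which the BMP and BMP/FGF libraries are described here. The authors trimmed the reads with Trim Galore 0.5.0, quantified them with kallisto 0.44.0 on mm10 transcripts, and deposited estimated counts per gene as whole numbers, made with tximport. They also deposited log2 values from the rlog transformation of DESeq2 1.27.32.

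Estimated counts of the 8 libraries (18069052 to 18711746 each) were fitted with edgeR 4.0.16 in R 4.3.3, with 1 mean per group, TMM scaling and the default expression filter, which kept 13403 of 17365 genes. Quasi-likelihood F-tests, Benjamini-Hochberg adjusted, gave the interaction, each line's response and each line difference. Each group has 2 libraries, so the fit has 4 residual degrees of freedom. Alternatives were DESeq2 1.42.0, limma 3.58.1 on the rlog values, other scalings, no filter, all 12 libraries, replicate blocks and leaving out each library in turn.

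Named genes were the 8 largest interactions in each direction with separated replicates and at least 1 CPM, 5 opposite genes in each direction, the 4 members of each of 31 lists with the lowest interaction p, and 8 fixed genes. Other genes given with a value were chosen after their values were seen. The members and lists were chosen with earlier results of these data known. Promoter windows of 10657 tested genes came from RefSeq (GRCm38.p6). Estimated counts of genes that share transcript sequence with other genes rest on how reads were divided. Some list members are counted but not reported by name here.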

Additional observations from a re-analysis of the deposited data

Results flagged for a closer look

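The responses of the lines differed, by the interaction test, for 1368 genes, and 103 of these moved in opposite directions with both responses called. Among the opposite genes with the largest smaller response, Brms1 had an interaction of 8.44, H2-T22 of 2.10, Olfml3 of 0.94, Lrrc9 of 0.69 and Uhmk1 of 0.75, all higher in BL6. In the other direction the interaction was -3.21 for Cpt1b, -1.25 for Susd4, -1.47 for D930016D06Rik, -1.16 for 4933427D14Rik and -1.40 for Prkg2. Brms1, H2-T22 and Cpt1b share over 50% of their transcript words with other genes. The EGF/FGF libraries enter only the check of the line labels and the fits of all 12 libraries. In such a fit 887 genes differed between BL6 and ANS4 in EGF/FGF. With 2 replicates per group no group was large enough to look for single samples far from the rest.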

How the results depend on the processing

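The count of 1368 interaction genes was 1353 with DESeq2 size factors, 1482 with library size only, 924 without the expression filter, 1172 with DESeq2's Wald test, 1096 with limma on rlog values and 1836 with all 12 libraries, and no gene called in both fits changed direction in any of these. With library size only, which moved the median interaction of all genes to -0.07, 408 were higher and 1074 lower. Above 1 on the log2 scale 143 remained (31 higher, 112 lower) and above 1.5 there were 32 (11 and 21). Genes opposite in both lines numbered 62 with DESeq2. Line differences in BMP/FGF (48) numbered 15 without the filter, 123 with DESeq2, 26 with limma on rlog values and 98 with all 12 libraries. With limma on rlog values, which are shrunken, the median interaction was -0.46 for the Dlx list, 0.24 for collagens and -0.30 for microglia markers. The cause of these shifts was not tested.

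Same-numbered replicates did not deviate together across genes (r = -0.05 in ANS4 and -0.02 in BL6, and -0.12 and -0.09 among well expressed genes). Each r rests on a single replicate difference in each condition, so it cannot show whether the numbers pair the libraries. A replicate block within each line gave 1172 interaction genes, 1252 line differences in BMP and 11 in BMP/FGF, and a block across lines gave 1522 interaction genes. With the ANS4 BMP/FGF numbers crossed, a choice made after seeing the data, the block gave 1397 and 1449.

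Leaving out each library in turn gave 334 (without BL6 BMP/FGF replicate 2) to 2921 (without BL6 BMP replicate 1) interaction genes, 151 to 1567 higher, 183 to 1354 lower and 25 to 229 opposite. Responses in ANS4 numbered 2076 to 5204, line differences in BMP 1254 to 3753, and those in BMP/FGF 2 to 536. The median interaction ran from 0.23 to 0.41 for antigen presentation, -0.92 to -0.56 for the Dlx list, 0.0032 to 0.0969 for NSC markers, -0.236 to -0.066 for ion channels and -0.70 to -0.26 for microglia markers. Of 116 named genes called, 94 kept the call in all 9 other alternatives that gave a value and 53 in all 8 fits with a library left out. With 2 replicates per group, a lost call says little about the size of the difference.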
